A study of Mus musculus with 6 samples.

Results

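The genes of MHC class I peptide loading were examined in Tfh cells, which give help to B cells of the germinal center. They are 10 of the 14744 genes measured: Psmb8, Psmb9, Tap1, Tap2, Tapbp, Erap1, H2-K1, H2-D1, B2m and Nlrc5. They were taken by symbol as genes of 1 pathway, and the set was chosen by the measured WT and Bach2-deficient values of these same libraries, in particular the higher values of Tapbp. Every WT against Bach2-deficient value of a member is therefore given as a description. Counts of members past a threshold stand beside the share of all genes, and nothing is read from them. RNA was sequenced from CD4+B220-CD44+PD-1+CXCR5+ cells, between 10000 and 30000 per sample, that were sorted from the mesenteric lymph nodes of C57BL/6J mice. The mice were 2 to 3 months old. There were 3 WT samples and 3 samples of Bach2 fl/fl Cd4-cre genotype. According to the study, the WT mice are littermates with the Cd4-Cre transgene. All mouse lines had a C57BL/6J background. Cd4-Cre deletes loxP-flanked alleles in T cells in general, not in Tfh cells alone. Nothing in the labels states that the samples of a group came from separate mice, so p-values measure the spread between these samples, which may be technical.

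Class I molecules carry short peptides from proteins made inside the cell to the cell surface, where CD8+ T cells read them. Proteasomes cut the proteins, the TAP transporter carries the pieces into the endoplasmic reticulum, aminopeptidases trim them there, and tapasin holds an empty class I molecule at the transporter until a tightly bound peptide is in place. Nearly every nucleated cell uses this pathway, lymphocytes at a high level, and interferon-gamma and the transactivator NLRC5 are known to raise the expression of its genes.

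The values are read counts per gene divided by a size factor of the library, called normalized counts below. Bach2 itself was examined first. It was at 233.2, 222.1 and 105.0 normalized counts in WT replicates 1, 2 and 3, and at 399.0, 762.5 and 591.2 in replicates 1, 2 and 3 of the other group. The lowest of the latter is above the highest of the former. From 6 libraries limma gave a log2 fold change of 1.68 with a standard error of 0.37 (adjusted p = 0.14). DESeq2 on 5 libraries, without WT replicate 1, gave 1.81 (adjusted p = 0.00123). Counts per gene may include exons outside the deleted ones. As the targeted gene ran opposite to its label, the second group is named by label here: libraries labelled Bach2-deficient.

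A single WT library stood apart. In WT replicate 1, 11648 genes had a value above 0, while the other 5 had 13111 to 13567, and it received a weight of 0.21 when limma estimated the quality of each library over all genes, against 0.42 to 5.54 for the others. Log2 fold changes without it are given for each member, and for the other pathway genes below whose groups do not overlap. Recovered depth ran from 5045131 to 10987752 reads over the other 5 libraries. Counting error is small for the members at this depth, the lowest member value being 109.0 normalized counts for Tap2 in WT replicate 1, and the spread between libraries limits precision.

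On the mouse genome Psmb9, Tap1, Psmb8 and Tap2 follow each other within 34.3 kb, chr17:34181987-34216321 of GRCm38, and 7 of the 10 members lie on chromosome 17. Psmb9 and Tap1 point away from each other, and their promoter windows share 275 of 300 bases on opposite strands. Promoter windows of 8 of the 10 members were found in RefSeq sequence of GRCm38.p6, from 250 bases before to 50 bases after the start. The 4 below are shown because they serve, in this order, the gene pair that shares a promoter, tapasin, and both chains of the class I molecule.
Tap1, chr17:34187306-34187605, plus strand: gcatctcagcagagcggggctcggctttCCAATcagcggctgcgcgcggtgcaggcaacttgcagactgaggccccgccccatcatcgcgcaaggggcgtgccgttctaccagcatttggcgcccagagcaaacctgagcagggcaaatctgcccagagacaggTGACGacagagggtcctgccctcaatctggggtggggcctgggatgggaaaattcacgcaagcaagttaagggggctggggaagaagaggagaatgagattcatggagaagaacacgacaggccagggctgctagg
Tapbp, chr17:33919228-33919527, plus strand: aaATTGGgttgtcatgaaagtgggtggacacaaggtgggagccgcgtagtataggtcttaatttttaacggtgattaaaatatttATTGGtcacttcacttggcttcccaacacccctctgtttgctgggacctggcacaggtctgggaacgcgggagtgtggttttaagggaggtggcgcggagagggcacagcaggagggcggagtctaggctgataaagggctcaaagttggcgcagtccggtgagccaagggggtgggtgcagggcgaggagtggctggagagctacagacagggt
H2-K1, chr17:34000298-34000597, minus strand: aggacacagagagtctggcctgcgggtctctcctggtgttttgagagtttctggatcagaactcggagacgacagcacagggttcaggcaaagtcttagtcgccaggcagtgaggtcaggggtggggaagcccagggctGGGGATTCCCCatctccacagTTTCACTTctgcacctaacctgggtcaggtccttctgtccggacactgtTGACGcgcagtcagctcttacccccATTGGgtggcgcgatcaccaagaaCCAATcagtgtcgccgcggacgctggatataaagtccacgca
B2m, chr2:122147437-122147736, plus strand: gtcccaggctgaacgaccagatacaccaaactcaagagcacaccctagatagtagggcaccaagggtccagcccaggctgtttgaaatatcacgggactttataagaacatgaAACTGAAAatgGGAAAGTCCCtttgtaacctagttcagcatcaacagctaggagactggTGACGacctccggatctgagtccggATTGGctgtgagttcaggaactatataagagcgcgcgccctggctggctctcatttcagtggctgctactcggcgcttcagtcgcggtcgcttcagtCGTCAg
Capitals mark matches, on either strand, to a kappaB consensus, the interferon regulatory factor core AANNGAAA, the CCAAT box or the CRE core TGACG. The BACH and AP-1 core TGANTCA was searched too and matched in 0 of the 8 windows, against 7.94% of 27018 mouse promoter windows. H2-K1, H2-D1 and B2m each held a match to the other 4 motifs, and the kappaB matches of H2-K1 overlap each other. The Tap1 window held 1 CCAAT box and 1 CRE core, and that of Tapbp held 2 CCAAT boxes. Over all windows the kappaB consensus was found in 10.9%, the interferon regulatory factor core in 24.2%, the CCAAT box in 37.9% and the CRE core in 21.0%. A match is a string of letters and was not tested for binding.

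The immunoproteasome members differed little between the groups. Psmb8, the chymotrypsin-like subunit LMP7 that replaces Psmb5 in immune cells, was at 3615, 3510 and 4108 normalized counts in WT, and at 3500, 3454 and 4248 in the libraries labelled Bach2-deficient. Psmb9, the LMP2 subunit that replaces Psmb6, was at 3876, 3904 and 4859 and at 3719, 3841 and 4641. In both genes the groups overlap and replicate 3 of each group is the highest. The log2 fold changes were -0.01 (standard error 0.18) and -0.05 (standard error 0.19), and their sign turned with the scaling: after removal of a trend in transcript length and GC content from each library they were 0.20 and 0.23. Without WT replicate 1 they were -0.03 and -0.11.

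The transporter genes, which lie between and beside these proteasome genes, had a different pattern. Tap1 was at 526.9, 606.8 and 654.1 normalized counts in WT and at 2054, 1287 and 891.9 in the libraries labelled Bach2-deficient. Tap2, the other half-transporter, was at 109.0, 222.1 and 163.3 and at 521.7, 409.4 and 329.3. In both genes each library labelled Bach2-deficient lies above each WT library, replicate 1 of that group is the highest and replicate 3 the nearest to WT. The log2 fold change was 1.16 (standard error 0.29) for Tap1 and 1.38 (standard error 0.34) for Tap2, and without WT replicate 1 it was 1.08 and 1.11.

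Within each library Tap1 can be set against Psmb9, from the other side of the shared promoter. The ratio of their normalized counts was 0.136, 0.155 and 0.135 in the WT libraries, and 0.552, 0.335 and 0.192 in those labelled Bach2-deficient. Its mean was 0.142 ± 0.0117 (SD, n = 3) and 0.360 ± 0.181 (SD, n = 3), with no overlap. The ratio of Tap2 to Psmb8 averaged 0.0444 ± 0.0170 in WT, against 0.115 ± 0.0359 in the other group (SD, n = 3), again without overlap. A ratio within a library is not moved by the library's size factor. The length and GC trend can move it, since Tap1 (2953 bases) and Tap2 (3442) are longer than Psmb9 (1352) and Psmb8 (1628). After removal of that trend the log2 fold changes were 0.89 for Tap1, 0.23 for Psmb9, 0.99 for Tap2 and 0.20 for Psmb8. Both pairs then lay closer together. The annotated spans of Psmb9 and Tap1 overlap by 212 bases on opposite strands, and the counting is not stated to use strand, so reads from that stretch cannot be assigned. Psmb8 and Tap2 each overlap the antisense gene Gm20496.

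Tapbp encodes tapasin, the chaperone that bridges the transporter and the class I molecule and edits its peptides. It was at 420.9, 628.2 and 559.4 normalized counts in WT and at 1440, 1366 and 1072 in the libraries labelled Bach2-deficient. Between the highest WT library and the lowest of the latter is a gap of 0.77 on the log2 scale, the widest such gap among the members with higher values. The log2 fold change was 1.28 (standard error 0.23), with 1.11 without WT replicate 1 and 1.02 after removal of the length and GC trend. This gene was the one whose values led to the choice of the set. By this gap it ranked 98 of 11296 genes. Its annotated span overlaps Zbtb22 on the same strand by 3422 bases.

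Erap1, the aminopeptidase that trims peptides in the endoplasmic reticulum, lay the other way. It was at 799.4, 904.1 and 665.5 normalized counts in WT and at 458.2, 568.9 and 542.1 in the libraries labelled Bach2-deficient, each of which is below each WT library. The log2 fold change was -0.59 (standard error 0.22) and kept its sign in all 19 other settings, from -0.73 to -0.40, with -0.57 without WT replicate 1. The deviation from the genes of like length is larger than that from 0, since the median log2 fold change in its length group was 0.47.

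The class I molecule itself is the most abundant product of the pathway. H2-K1, the heavy chain H-2K, was at 16769, 16556 and 20743 normalized counts in WT and at 25942, 22504 and 21961 in the libraries labelled Bach2-deficient. H2-D1, the heavy chain H-2D, was at 18801, 17442 and 21822 and at 15907, 16020 and 23078. B2m, the light chain that all class I molecules share, was at 70004, 103111 and 119729 and at 67235, 77365 and 79433. The groups do not overlap for H2-K1, where the nearest libraries are 0.08 apart on the log2 scale, and they overlap for H2-D1 and B2m. In B2m the overlap comes from WT replicate 1 alone.

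The log2 fold changes were 0.38 (standard error 0.21) for H2-K1, -0.09 (standard error 0.23) for H2-D1 and -0.35 (standard error 0.28) for B2m. Without WT replicate 1 they were 0.34, -0.11 and -0.58. That of B2m turned to 0.31 after removal of the length and GC trend. The ratio of H2-K1 to H2-D1 was 0.892, 0.949 and 0.951 in WT and 1.63, 1.40 and 0.952 in the libraries labelled Bach2-deficient, so replicate 3 of that group sits at the WT level. H2-K1, H2-D1 and the Q and T genes are close copies of each other, and reads that fit several of them may have been split or dropped in the counting, so the level of each is uncertain. B2m lies within the span of the antisense gene Patl2.

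Nlrc5 encodes the transactivator that assembles on class I promoters. It was at 196.8, 599.0 and 489.8 normalized counts in WT and at 1151, 1000 and 617.8 in the libraries labelled Bach2-deficient. The groups do not overlap, but WT replicate 2 and replicate 3 labelled Bach2-deficient are 0.04 apart on the log2 scale. The log2 fold change was 1.21 (standard error 0.41), and it was 0.72 without WT replicate 1 and 0.70 after removal of the length and GC trend, where the groups overlapped.

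**Figure D1:**
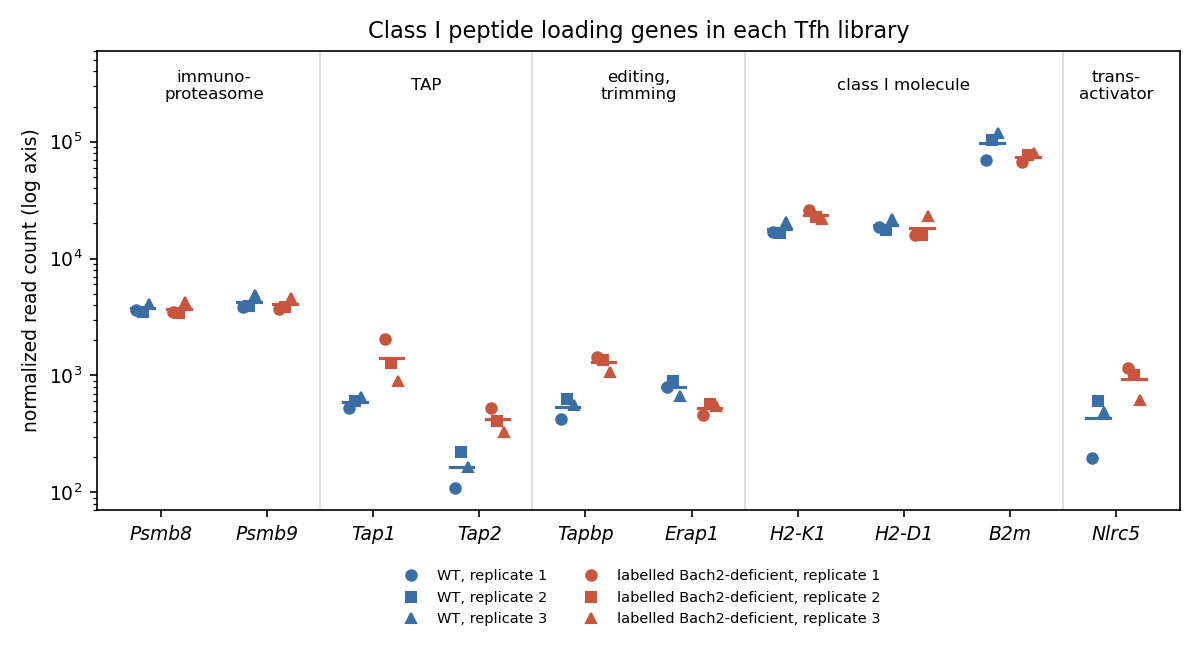
Normalized read count of each member (log axis) in 3 WT libraries (blue) and 3 libraries labelled Bach2-deficient (red), with the symbol giving the replicate and the line the group mean. All red points lie above all blue points for Tap1, Tap2, Tapbp, Nlrc5 and H2-K1 and below them for Erap1, and for Nlrc5 the groups overlap after removal of the length and GC trend.

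Read together, the median over the 10 members was a log2 fold change of 0.19, against 0.08 over the 11296 genes tested, with 5 members above 0 and 5 below. All 10 passed the filter of at least 10 normalized counts in at least 3 libraries. Groups without overlap, higher in the libraries labelled Bach2-deficient, were seen in 5 of 10 members, as in 14.6% of all genes tested. When single libraries were left out these were the same 5 members, while the share of all genes ran from 17% to 27.2%. Groups without overlap in the other direction were seen in 1 of 10, as in 12.2% of all genes, in 2 of 10 without WT replicate 1 (Erap1 and B2m, against 18.1% of all genes) and in 4 of 10 without replicate 3 labelled Bach2-deficient (Erap1, Psmb8, Psmb9 and H2-D1, against 23% of all genes). Since these values chose the set, nothing is read from the counts.

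Thresholds were those of the study: adjusted p below 0.01 and a fold above 2 either way. With limma they were passed by 0 of 10 members, as by 0% of all genes. By the same fit, 2301 genes had an unadjusted p under 0.05. Among them were 4 members with a higher value in the libraries labelled Bach2-deficient, against 10.1% of all genes, and 1 with a lower value, against 10.2%. DESeq2 on 5 libraries passed 1 of 10 members as higher (Tapbp), against 0.292% of all genes, and 0 as lower, against 0.505%. The edgeR test on the same 5 libraries passed 0 genes of all those tested, with 2070 at an unadjusted p under 0.05. Library weights, a setting chosen after seeing the data, passed 4 members as higher (Tap1, Tap2, Tapbp and Nlrc5) beside 561 higher and 567 lower genes in all. These member counts stem from the contrast that chose the set and are given as a description.

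**Figure D2:**
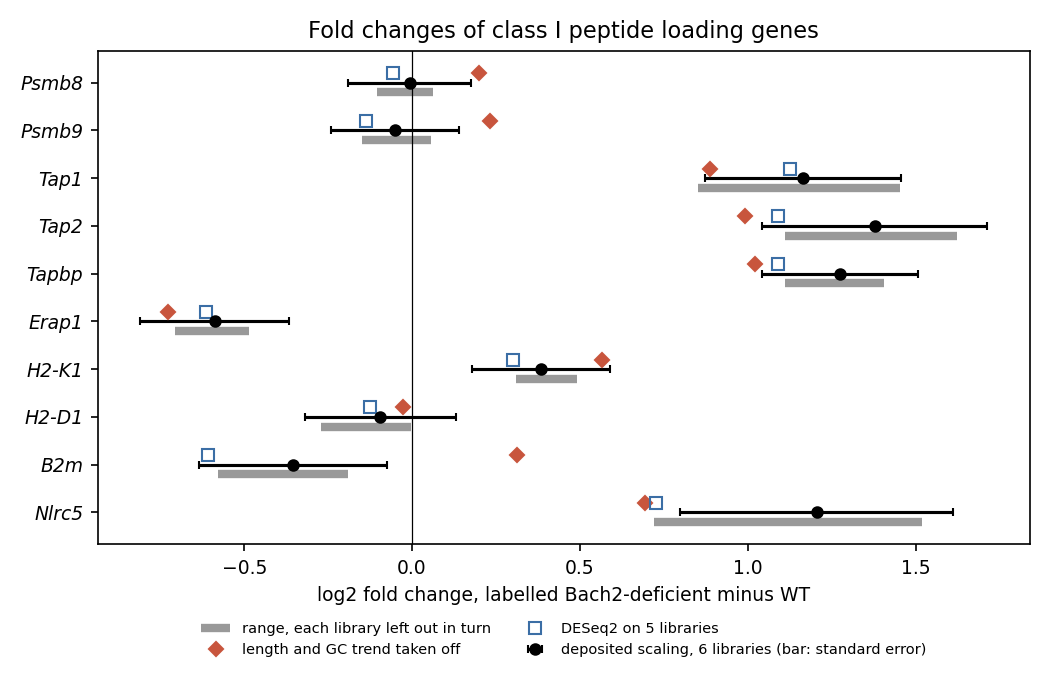
Log2 fold change of each member, libraries labelled Bach2-deficient minus WT: from 6 libraries (black, bar for the standard error), after removal of the length and GC trend (red diamonds), from DESeq2 on 5 libraries (open squares) and as the range when each library is left out in turn (grey). Tap1, Tap2, Tapbp and Nlrc5 are above 0 in all of these (lowest value 0.70, Nlrc5) and Erap1 is below 0, while B2m, Psmb8 and Psmb9 change sign after removal of the length and GC trend.

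Transcript length moved with the contrast. Across 11269 genes with a known length, Spearman's rho of log2 fold change with longest transcript length was 0.34, where genes are not independent replicates. In 10 groups of equal size by length, the median log2 fold change ran from -0.34 in the second shortest group, which holds Psmb8, Psmb9 and H2-K1, to 0.48 in the longest, which holds Nlrc5. Tap1 and Tapbp belong to a group with a median near 0 and Tap2 to one with 0.18. After removal of the trend in length and GC content together, the log2 fold changes were 0.89 for Tap1, 0.99 for Tap2, 1.02 for Tapbp, 0.70 for Nlrc5, 0.56 for H2-K1 and -0.73 for Erap1. The parts of length and GC content were not told apart, and that of RNA quality or amplification was not tested.

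**Figure D3:**
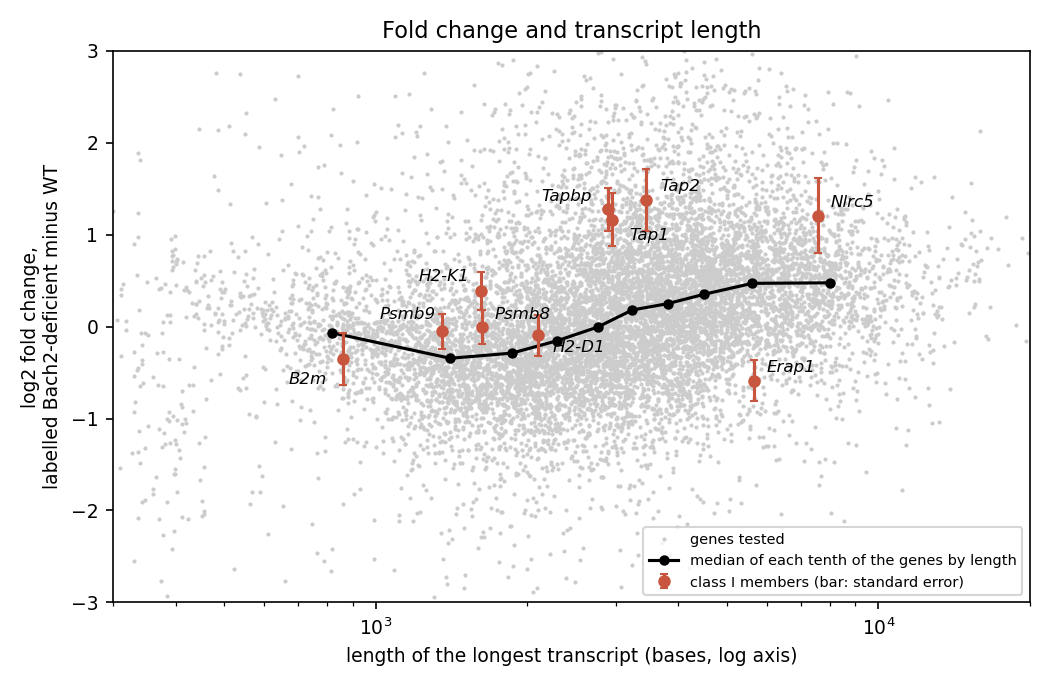
Log2 fold change against the length of the longest transcript (log axis) for the genes tested (grey), the median of each of 10 length groups (black line) and the members (red, bar for the standard error). Of 11269 genes, 144 lie outside the axes, and all members lie above the black line except Erap1 and B2m, which lie below it.

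Per kilobase of transcript, the levels of the members span more than 3 orders of magnitude. In WT the mean was 113505 normalized counts per kb for B2m, 11132 for H2-K1, 9208 for H2-D1, 3116 for Psmb9 and 2300 for Psmb8. Far below these came Tap1 at 201.8 ± 21.8 (SD, n = 3), Tapbp at 185.0 ± 36.4, Erap1 at 139.9 ± 21.2, Nlrc5 at 56.5 ± 27.4 and Tap2 at 47.9 ± 16.4. Tap1 and Tapbp, and likewise Nlrc5 and Tap2, differ by less than 1 SD. In the libraries labelled Bach2-deficient the order of the upper 7 was the same, and Erap1, at 92.7 ± 10.2 normalized counts per kb, came last behind Tap2 at 122.1 and Nlrc5 at 121.8. All members together took 1.47% to 2.14% of a library's sum, most of it B2m.

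Other genes of the pathway were listed by role, 68 in all, of which 63 were tested. Limma called 0 of them, edgeR called 0, and DESeq2 on 5 libraries called 0 higher and 1 lower. With limma 5 were higher and 5 lower at an unadjusted p under 0.05, 7.94% each way against 10.1% and 10.2% of all genes. The groups did not overlap in 8 genes with higher and 6 with lower values, 12.7% and 9.52% against 14.6% and 12.2% of all genes. The median log2 fold change of the list was 0.07, and -0.02 without WT replicate 1.

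The partners of the immunoproteasome resembled Psmb8 and Psmb9. All 4 overlapped between the groups, with a median log2 fold change of -0.07 that turned to 0.23 after removal of the length and GC trend. The catalytic subunit Psmb10 was at 2175 ± 30.4 (SD, n = 3) normalized counts in WT and 2348 ± 404 (SD, n = 3), and the activator subunits Psme1 and Psme2 were at 6081 ± 934 and 8241 ± 760 in WT and at 5430 ± 449 and 8282 ± 906. Of the 3 constitutive subunits that Psmb8, Psmb9 and Psmb10 replace, Psmb5 and Psmb6 overlapped between the groups and Psmb7 did not. Psmb7 was at 1132, 916.4 and 1056 in WT and at 441.9, 622.5 and 701.6 in the libraries labelled Bach2-deficient (log2 fold change -0.83, limma adjusted p = 0.146). It was -0.77 without WT replicate 1 and -0.33 after removal of the length and GC trend. The ratio of Psmb10 to Psmb7, which occupy the same place in the particle, averaged 2.12 ± 0.212 in WT, against 4.03 ± 0.258 in the other group (SD, n = 3).

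Among 11 chaperones and export factors of the endoplasmic reticulum, 1 was apart with higher values and 2 with lower ones. Pdia3, the disulfide isomerase ERp57 that is bonded to tapasin, was at 8607, 5529 and 7258 normalized counts in WT and at 2437, 3068 and 5177 in the libraries labelled Bach2-deficient. Its groups do not overlap, and limma gave a log2 fold change of -1.05 with a standard error of 0.29 (adjusted p = 0.144), with -0.90 both without WT replicate 1 and after removal of the length and GC trend. Calreticulin, Calr, was at 3223 ± 764 (SD, n = 3) and 2404 ± 33.3 (SD, n = 3) without overlap (log2 fold change -0.40, limma adjusted p = 0.297), with -0.22 and -0.13 in these settings. Ganab, a glucosidase subunit, was apart by a small margin, at 485.4 ± 27.0 and 509.3 ± 5.57 (log2 fold change 0.07, limma adjusted p = 0.871), with 0.10 without WT replicate 1 and a turn to -0.15 without the trend. The abundant Hspa5 and Bcap31 overlapped between the groups, with log2 fold changes of -0.14 and -0.33, and after removal of the length and GC trend they were -0.17 and, with the sign turned, 0.20. The tapasin-related gene Tapbpl, chosen for this comparison after its values were seen, was at 322.0, 236.7 and 249.6 in WT and at 375.4, 298.8 and 274.1, with overlap, and the ratio of Tapbp to Tapbpl was 2.07 ± 0.690 (SD, n = 3) and 4.1 ± 0.40 (SD, n = 3). None of the 6 other peptidases on the list, Tpp2, Blmh and Lnpep the most abundant among them, was apart between the groups.

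With all 6 libraries the other class I heavy chains had the highest median of the lists of other pathway genes. It was 0.39 over 14 genes tested of 19 listed. There were 12 of the 14 above 0, but 7 of 14 without WT replicate 1, where the median was 0.04 and no longer the highest. Without that library the transcription factors had a median of 0.09 and interferon-gamma signalling 0.05. After removal of the length and GC trend the median of the heavy chains was 0.61. With all 6 libraries 4 were apart with higher values in the libraries labelled Bach2-deficient. H2-Q2 was at 151.4, 473.4 and 683.2 normalized counts in WT and at 1435, 889.1 and 1224 in those libraries. Limma gave a log2 fold change of 1.66 with a standard error of 0.47 (adjusted p = 0.146), and DESeq2 without WT replicate 1 gave 1.0 (adjusted p = 0.0342). H2-Q4 was at 64.6, 207.5 and 162.2 and at 564.6, 388.0 and 218.9 (log2 fold change 1.48, limma adjusted p = 0.161). H2-T10 and H2-T24 were apart too, with log2 fold changes of 0.56 and 0.84. In all 4, WT replicate 1 is the lowest library of all 6, and without it limma gave 1.03 for H2-Q2, 0.98 for H2-Q4, 0.45 for H2-T10 and 0.33 for H2-T24. After removal of the trend these were 1.77, 1.65, 0.91 and 1.13. The more abundant H2-Q7, H2-T23 and H2-Q6 overlapped between the groups, with log2 fold changes of 0.21, 0.30 and 0.59, and near 0, at 0.20 and at 0.27 without that library, and 0.37, 0.63 and 0.71 after removal of the trend. The uncertainty from shared reads holds for all of these genes.

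Of 14 transcription factors known at class I promoters, 13 overlapped between the groups, and the median log2 fold change was 0.03, with a turn to -0.06 after removal of the length and GC trend. The most abundant were Nfkb1, at 1481 ± 232 (SD, n = 3) in WT and 1552 ± 215 (SD, n = 3), Irf1, at 1337 ± 110 and 1233 ± 129, and Irf2, at 1109 ± 134 and 1076 ± 20.5. Nfyb, a subunit of the factor that binds CCAAT boxes, was apart, at 1085 ± 162 and 770.1 ± 95.1 (log2 fold change -0.49, limma adjusted p = 0.231). It was -0.60 without WT replicate 1 and -0.09 after removal of the length and GC trend.

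Genes of interferon-gamma signalling went in both directions. Ifng was at 179.7, 163.8 and 361.9 normalized counts in WT and at 32.5, 91.1 and 51.1 in the libraries labelled Bach2-deficient. DESeq2 called this gene alone in the pathway lists, with a log2 fold change of -2.18 (adjusted p = 0.00345), while limma gave -2.02 (standard error 0.49, adjusted p = 0.14), and -2.17 without WT replicate 1 and -1.34 after removal of the length and GC trend. Stat2, a factor of the response to type I interferons, was at 50.5, 219.9 and 131.0 in WT and at 332.5, 323.6 and 280.2 in the libraries labelled Bach2-deficient. These groups do not overlap, and limma gave 1.45 on the log2 scale (adjusted p = 0.163). The lowest value is that of WT replicate 1, and without it limma gave 0.87 and DESeq2 0.80. The kinase gene Jak1 was apart with higher values, at 3755 ± 578 (SD, n = 3) and 4655 ± 497 (SD, n = 3), and the phosphatase gene Ptpn2 with lower ones, at 1799 ± 152 and 1156 ± 263. Their log2 fold changes were 0.32 and -0.66, without WT replicate 1 0.19 and -0.61, and after removal of the length and GC trend 0.04 and -0.28. The abundant Jak2 overlapped, at 1694 ± 562 and 1806 ± 168. How far any of these genes bears on the members was not tested.

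**Figure D4:**
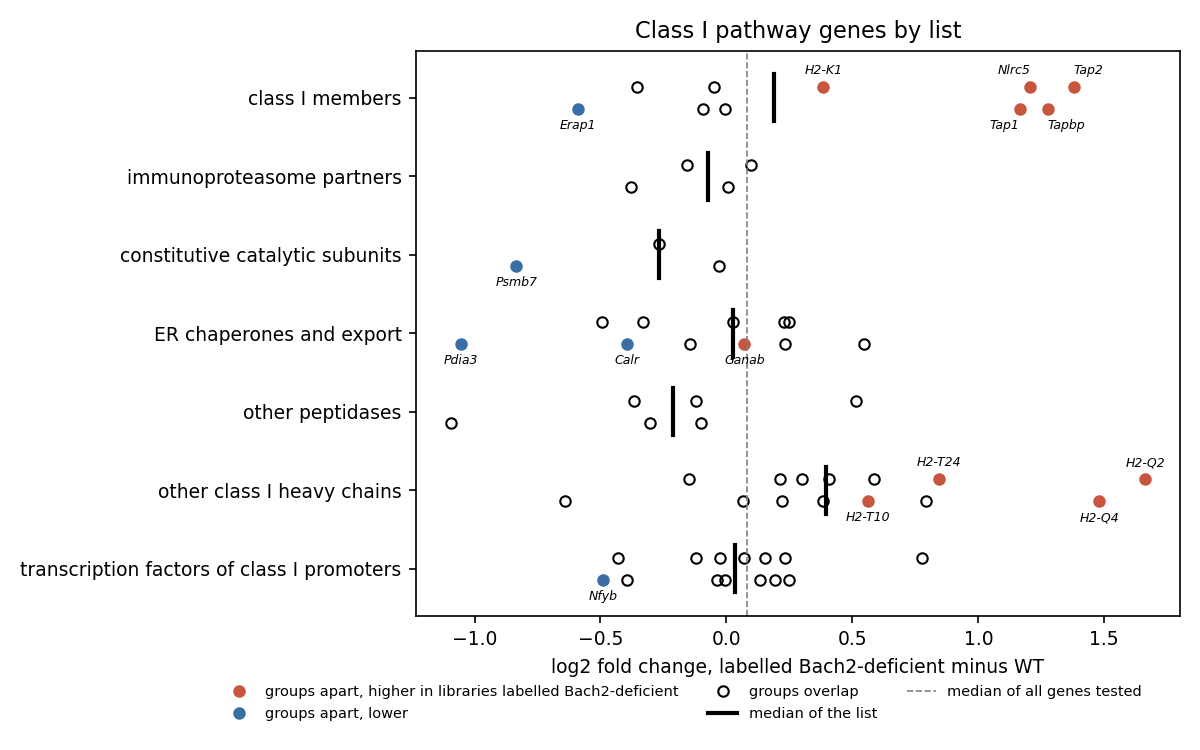
Log2 fold change of each tested gene, libraries labelled Bach2-deficient minus WT, by list, with interferon-gamma signalling not drawn. Filled points are genes whose groups do not overlap (red higher, blue lower), thick bars are list medians and the dashed line is the median of all genes tested, 0.08. The list of other class I heavy chains has a median of 0.39, and the immunoproteasome partners have no filled point.

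Markers were used to check the label of the cells. The sort gate held no Foxp3 step, so Foxp3+ follicular regulatory (Tfr) cells may be among the sorted cells. According to the study, the ratio of Tfh to Tfr cells among follicular T cells differed between WT and Bach2-deficient mice. The share of Tfr cells in these libraries was not tested. All 8 T cell markers and all 8 Tfh markers were above 0 in every library. The T cell list summed to 58681, 61299 and 77878 normalized counts in WT and to 55389, 52897 and 58272 in the libraries labelled Bach2-deficient, which lie below, with Cd3d the most abundant. DESeq2 on 5 libraries called Cd3e lower (adjusted p = 0.00351). The Tfh list summed to 18335, 20806 and 28604 and to 22311, 15752 and 21917, with Sh2d1a the most abundant. Cxcr5 and Pdcd1, which defined the gate, were at 1699 ± 307 (SD, n = 3) and 2235 ± 576 in WT and at 1835 ± 497 and 1849 ± 355. Icos was called lower by DESeq2 (adjusted p = 0.00176). Without being called, Cd4, Zap70, Bcl6, Cd44 and Tox2 were apart with higher values (log2 fold changes 0.49, 0.43, 0.74, 0.93 and 1.10) and Cd28 with lower ones (-0.83). Without WT replicate 1 these were 0.47, 0.50, 0.76, 0.70, 0.74 and -0.85.

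B cells and myeloid cells carry high class I levels too, so their markers bear on bulk values, although the gate was CD4+B220-. In bulk samples, fewer cells of a type and less RNA per cell cannot be told apart. Cd79b was the most abundant of the B cell markers, at 112.0, 369.0 and 224.6 normalized counts in WT and at 102.0, 145.4 and 116.6 in the libraries labelled Bach2-deficient. Cd79a was at 19.2, 207.5 and 140.4 and at 22.2, 14.7 and 45.0, so the groups overlap through WT replicate 1. DESeq2, which leaves that library out, called it lower (adjusted p = 0.000455), while limma gave -1.72 on the log2 scale with all 6 libraries (adjusted p = 0.28) and -2.75 without it. Ms4a1 was apart with lower values, at 38.2 ± 6.56 (SD, n = 3) and 5.29 ± 4.28. Others went the other way and overlapped: Cd22 was at 80.1 ± 37.9 and 154.8 ± 80.3, Cr2 at 18.8 ± 16.9 and 29.3 ± 23.7, Fcer2a at 4.11 ± 7.12 and 11.4 ± 4.14, Blk at 2.56 ± 2.84 and 8.42 ± 4.82, and Ebf1 at 1.71 ± 1.58 and 9.21 ± 5.34. Of 7 tested, 3 had a log2 fold change above 0 and 4 below. Without WT replicate 1, 2 of the 7 were above 0, and Cr2 turned from 1.40 to -0.22. Blk, Fcer2a and Cr2 were at 0 in WT replicate 1, Fcer2a in WT replicate 3 too, and Ebf1 in WT replicate 2. The 12 myeloid or dendritic cell markers summed to 6758, 16521 and 9220 and to 7749, 14989 and 5533, with Cst3 the most abundant, Lyz2 between 1407 and 7211, and Itgam and Clec9a at 0 in WT replicate 1.

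The sums of the remaining lists overlapped between the groups as well. The 8 CD8 T or NK cell markers summed to 999.2, 1531 and 1033 and to 656.2, 1252 and 817.2, with Cd8b1 the most abundant and Ncr1 and Klrd1 at 0 in WT replicate 1. The 4 plasma cell markers summed to 2006, 30071 and 8377 and to 3188, 1546 and 1561, nearly all of it Jchain in the highest library, with Sdc1 at 0 in WT replicate 1 and Xbp1 apart with lower values. Of 5 stromal or endothelial markers 4 were measured, with sums between 445.1 and 586.7 that were almost all Pecam1. Col1a1 and Col3a1 were at 0 or near it in every library. Cdh5, too low to be tested, was at 0, 1.12 and 1.04 in WT and at 5.91, 4.69 and 5.11 in the libraries labelled Bach2-deficient, without overlap. The 4 hemoglobin genes, led by Hbb-bs, summed to 5.05, 740.3 and 3.12 and to 16.3, 18.8 and 2853. The part of other cell types in the members' values was not tested.

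The genes whose values ran most like those of Tapbp over the 6 libraries were Pabpc1, a poly(A)-binding protein gene, Baz2a, of a chromatin remodelling complex, and Zc3h13, of the RNA methylation machinery. Pearson's r of log2(normalized count + 1) was 0.999, 0.997 and 0.996, and 735 of the genes tested had r above 0.9. The measure takes up the difference between the groups, so it says nothing of shared control.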

How the data were processed

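RNA of sorted Tfh cells was sequenced in 6 libraries after cDNA amplification with the SMARTer Ultra Low kit. The deposited signal is a read count per gene that the authors divided by a size factor of each library, as in DESeq2. The study's methods name Tophat2 and HTSeq, while the submitters' processing notes list STAR 2.5.2b, DESeq2 1.20.0 and GRCm38/mm10, and which aligner made the table is not settled by these sources. The annotation is not given in the sources used here.

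Log2(normalized count + 1) went into limma 3.58.1 under R 4.3.3 (trended variance, Benjamini-Hochberg adjustment) over the 11296 genes that reached 10 normalized counts in 3 or more libraries. This scale understates the change of low genes. Single genes with 3 samples against 3 cannot give an exact permutation p under 0.1. Dividing by the smallest positive value of a library, its step, gave whole numbers for 100% of the values (tolerance 0.001). edgeR 4.0.16 and DESeq2 1.42.0 were run on these reads in 5 libraries. WT replicate 1 was left out of these by name. Its step of 1.01 was judged too near 1 for recovered reads, although its values are whole multiples too. Replicate 3 labelled Bach2-deficient, with a step of 1.02, was kept. The library left out is also the one that stood apart, so edgeR and DESeq2 rest on 2 WT libraries. The tests were tried on simulated data.

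Symbols were matched without regard to case. Of 14744 symbols, 14329 were found in GENCODE M21 and 369 more by an older symbol, all 10 members among the former, for lengths, GC content (trend fitted with mgcv 1.9.3) and coordinates. Promoter windows are RefSeq's.

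Members and lists were chosen with earlier results of these data known. All members are named. Of the other lists, a gene is named when it passed the thresholds in limma or DESeq2, when its groups do not overlap, or as 1 of up to 3 genes with the largest mean. For Tapbp the 3 genes with the highest Pearson correlation are named. Some listed genes are not reported here. The pseudocount, filter, scaling, variance model, threshold and test were varied, the replicate number was tried as a block, and single libraries were dropped in turn. Library weights were added after seeing the data.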

Additional observations from a re-analysis of the deposited data

How the results depend on the processing

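The count of genes past the thresholds was 0 higher and 0 lower in the other settings, an adjusted p under 0.05 with no fold limit among them, except with DESeq2 on 5 libraries (33 higher and 57 lower) and with library weights, chosen after seeing the data (561 higher and 567 lower). The cause of these differences was not tested. The median log2 fold change of the members moved from 0.19 to 0.44 after removal of the length and GC trend and to 0.0451 with library weights, and ran from 0.14 to 0.28 when single libraries were left out. That of the other pathway genes moved from 0.07 to 0.15 after removal of the length and GC trend and to -0.0232 with DESeq2, and ran from -0.0156 (without WT replicate 1) to 0.12 (without replicate 1 labelled Bach2-deficient). The log2 fold change of Bach2 was positive in all settings, passed the thresholds with DESeq2 (1.81) and with library weights (2.36), and ran from 1.31 to 1.93 when single libraries were left out. Members apart with lower values ran from 1 to 4 when single libraries were left out, while the share of all genes apart with lower values ran from 14% to 23%. The largest shift of the median of all genes was 0.07.

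With the replicate number as a block, 0 genes were called, and the medians of the members and of the other pathway genes (0.19 and 0.07) and the log2 fold change of Bach2 (1.68) were as without it. Same-numbered libraries did not deviate together (r of -0.07, 0.12 and -0.04), so no pairing by number was seen. With 3 libraries a group this cannot exclude a shared origin or handling of same-numbered samples. There were 3 libraries a group, 1 of them with fewer genes above 0, and the smallest limma adjusted p of any gene was 0.1405. By this test no member can be told from 0. Psmb8, Psmb9 and B2m also changed sign in some settings. B2m was at -0.61 with DESeq2 on 5 libraries and at 0.31 after removal of the length and GC trend.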

Other observations

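Class I-like genes outside the lists were measured too. H2-K2, next to H2-K1 on chromosome 17, was at 210.8 ± 78.4 (SD, n = 3) normalized counts in WT, against 223.5 ± 27.9 in the other group (SD, n = 3). H2-Q5, close to H2-Q2 and H2-Q4, was at 313.0 ± 95.2 and 231.5 ± 99.4, and H2-Q3 at 21.4 ± 9.91 and 21.4 ± 6.53. In all 3 the groups overlap. These genes were chosen after their values were seen.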
